A study of Mus musculus with 14 samples.

Results

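The mitochondrial ribosomal proteins of the mouse were followed in oocytes that overexpressed Rnaseh1, the enzyme that cuts the RNA of RNA-DNA hybrids. Members were taken by symbol, as every protein-coding gene named Mrpl or Mrps with a number that was present in both deposited expression tables and reached 1 TPM (a length-scaled share of a library's transcripts) in at least 2 libraries of a table. The rule gave 78 genes, 49 of the large subunit (Mrpl) and 29 of the small subunit (Mrps), out of 35389 gene rows in one table and 35341 in the other. It used symbols and detection only, not differences between groups. The first table holds 8 libraries from oocytes with a non-surrounded nucleolus (NSN) or a surrounded nucleolus (SN), the earlier and the later chromatin state of a growing oocyte, each overexpressing either mCherry (a fluorescent protein used as the control) or Rnaseh1. The second table, the rescue set, holds 6 libraries from oocytes that overexpressed mCherry, Rnaseh1, or both Rnaseh1 and Supt6, which encodes a histone chaperone of transcript elongation. The 14 libraries thus form 7 groups of 2. The labels name no strain, age or genotype, give no stage for the rescue set, and leave unsaid whether libraries of the same group stem from different animals or oocyte pools. Each p-value therefore measures the spread between libraries only.

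Mitochondria carry their own ribosome, which translates the few membrane proteins that mitochondrial DNA encodes, all of them subunits of the respiratory chain and of ATP synthase. Its RNA comes from the mitochondrial genome, but each of its proteins is encoded in the nucleus, made in the cytosol and imported. The small subunit binds and decodes the messenger RNA and the large subunit joins the amino acids. Some of the proteins descend from those of bacterial ribosomes and others exist only in mitochondria. Oocytes hold very large numbers of mitochondria, which the embryo inherits.

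The 78 genes lay on 17 chromosomes of the GRCm38 assembly (GENCODE M21). A feature that the rule did not use was their arrangement. The start of 18 members (23.1%) lay within 1000 bases of the start of another coding gene that is read away from it, against 6.79% of 21938 coding genes. Both genes of such a pair share the stretch between their starts. RefSeq promoter windows of 300 bases (250 before the start and 50 after it, GRCm38.p6) were matched by symbol for 69 members, and 9 had no entry. Matches to 5 short motifs were counted on both strands. The ETS motif CCGGAAG was in the windows of 25 of the 69 members (36.2%), against 18.9% of 8854 coding genes tested in the rescue set and 9.12% of all 27025 windows. The YY1 motif ATGGCGG was in 13 windows (18.8%), against 8.35% and 4.19%. The NRF1 motif GCATGCGC was in 8 windows (11.6%), against 5.91% and 2.8%. The Sp1 motif GGGCGG was in 34 windows (49.3%), below the 61.9% of tested coding genes and above the 35.9% of all windows. The TATA box TATAAA was in 4 windows (5.8%), against 7.38% and 14.2%. A match describes the letters of a window and is not evidence of binding.

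Promoter stretches are printed below from RefSeq, 5′ to 3′ in the direction of the member, up to 250 bases before its start and only where no annotated coding gene lies. Mrpl42 and Mrps33 are shown because they had the largest increases of the large and the small subunit in the rescue set, and the other 5 because they are the complete stretch shared by a member and its neighbour. Capitals mark the matches: Sp1 in Mrpl42, Mrps33 and Mrpl37, NRF1 in Mrpl10 and ETS in Mrps27. The stretches of Mrpl30 and Mrpl32 hold none of the 4 motifs ETS, YY1, NRF1 and Sp1. The windows counted above hold further matches that do not lie within these stretches. They are NRF1 and Sp1 in Mrpl32, ETS in Mrps33, and YY1 in Mrpl37 and Mrps27.
Mrpl42 (chr10:95501950-95502199, minus strand): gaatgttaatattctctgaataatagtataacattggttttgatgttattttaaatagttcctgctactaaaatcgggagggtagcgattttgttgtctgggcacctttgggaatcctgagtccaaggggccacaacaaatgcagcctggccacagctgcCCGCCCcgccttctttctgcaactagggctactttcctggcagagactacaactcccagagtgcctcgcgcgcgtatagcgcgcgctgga
Mrps33 (chr6:39810989-39811186, minus strand): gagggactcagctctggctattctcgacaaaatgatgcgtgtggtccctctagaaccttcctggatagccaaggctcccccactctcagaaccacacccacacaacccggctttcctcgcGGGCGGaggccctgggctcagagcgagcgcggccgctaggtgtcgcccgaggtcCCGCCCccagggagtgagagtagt
Mrpl37, shared with Cyb5rl (chr4:107066869-107066987, minus strand): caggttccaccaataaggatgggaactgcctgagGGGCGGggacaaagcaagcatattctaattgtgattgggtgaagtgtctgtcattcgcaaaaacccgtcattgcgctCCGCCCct
Mrpl10, shared with Lrrc46 (chr11:97041408-97041559, plus strand): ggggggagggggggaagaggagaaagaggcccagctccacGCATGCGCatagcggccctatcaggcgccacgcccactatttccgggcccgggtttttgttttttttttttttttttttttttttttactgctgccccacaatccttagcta
Mrps27, shared with Ptcd2 (chr13:99344706-99344785, plus strand): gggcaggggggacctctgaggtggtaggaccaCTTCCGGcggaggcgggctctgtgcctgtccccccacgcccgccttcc
Mrpl30, shared with Mitd1 (chr1:37890412-37890476, plus strand): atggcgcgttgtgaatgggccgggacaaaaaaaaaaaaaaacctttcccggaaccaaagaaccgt
Mrpl32, shared with Psma2 (chr13:14613166-14613239, minus strand): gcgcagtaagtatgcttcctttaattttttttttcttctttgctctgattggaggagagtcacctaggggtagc

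TPM is a share of the transcripts of a library and keeps no depth, so the reads behind a value are unknown, and less RNA of a gene per oocyte cannot be told apart from a change in the rest of the RNA. Rnaseh1 was at 81.0 to 137 TPM in the 6 mCherry libraries and at 229 to 2270.5 TPM in the 8 libraries labelled Rnaseh1. Supt6 was at 28.2 and 20.97 TPM where it was overexpressed and at 0.72 to 7.27 TPM elsewhere. All 14 oocyte markers reached 1 TPM in both libraries of every group. Of 14 granulosa and cumulus cell markers, 2 did so in every group. Their summed level was 19.8 to 54.8 TPM in all libraries, and Amh, Amhr2, Foxl2, Ptx3 and Tnfaip6 were listed at 0 in each library. Sums of 3 endothelium markers were 30.8 to 32.8 TPM with mCherry, 5.76 to 9.61 TPM with Rnaseh1 and 30.1 to 32.0 TPM with Supt6 added in the rescue set, with Cdh5 listed at 0 in all 6 libraries. Those of 6 immune cell markers were 3.16 to 4.21, 0 to 0.1 and 1.9 to 2.47 TPM, and the part of either list in the results was not tested. The 4 blood markers summed to at most 0.53 TPM and the 4 stroma markers to at most 3.29 TPM in any library. In 2 groups, NSN Rnaseh1 and SN mCherry, the replicates stood apart from each other. The difference between them had an SD across members of 1.46 and 1.04 (log2), against 0.17 to 0.36 in the other 5 groups. That SD does not say which library of a group departs. Rnaseh1 itself was at 745 and 229 TPM in the NSN Rnaseh1 libraries and at 81.0 and 131 TPM in the SN mCherry libraries. All libraries were kept as labelled, and whether the treatment or stage label of these 4 is right was not tested, so the NSN and SN values below hold only as far as those labels do.

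In control oocytes nearly all members were expressed, and their levels covered 3 orders of magnitude. Of the 78 members, 76 to 78 reached 1 TPM in each library of the NSN and SN table, and 76 or 77 in each library of the rescue set. Mrps33, a small-subunit protein found only in mitochondria, had the highest TPM of the members in all 14 libraries. In the rescue set its level was 662 and 633 TPM with mCherry. Mrps36 followed with 474 and 442 TPM and Mrps22 with 462 and 451 TPM, and the libraries of these 2 genes overlapped. Despite its symbol, the protein of Mrps36 is now known as a part of the oxoglutarate dehydrogenase complex of the citric acid cycle. In the 4 mCherry libraries of the NSN and SN table, Mrps33 ranged from 931 to 2386 TPM, Mrps22 from 673 to 806 TPM and Mrpl22, a counterpart of a bacterial protein of the exit tunnel, from 608 to 951 TPM. At the low end of the rescue set stood Mrps34 with 0.63 and 0.95 TPM, Mrpl19 with 1.46 and 1.63 TPM and Mrpl43 with 5.27 and 6.35 TPM. Exons of each of these 3 overlap another coding gene (Nme3 and Mapk8ip3, Gcfc2 and Twnk), as do those of 21 members in all, and whether strand was used in the counting is not stated, so these values are uncertain. The median TPM of the large and the small subunit was close in the 2 mCherry libraries of the rescue set, 89.4 and 87.4 against 80.1 and 83.6. In the NSN mCherry libraries the medians were 93.1 and 83.8 against 112.7 and 111.2. In the SN mCherry libraries they were 89.2 and 107.6 against 107.5 and 101.8.

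With Rnaseh1 in the rescue set, the mitochondrial ribosomal genes moved in both directions, with quartiles about as far apart as those of all genes. Of the 77 members that passed the filter (Mrps34 did not), 27 rose and 35 fell by limma on log2(TPM + 1) with an adjusted p under 0.05, while 15 did not pass. Over all 12859 genes tested, 20.3% rose and 46.2% fell, 66.5% in all, so the share of falling members (45.5%) was near the background and the share of rising members (35.1%) was above it. The median log2 change of the members was -0.13, with quartiles of -1.13 and 0.70. For all genes it was -0.52, with quartiles of -1.43 and 0.39. The extremes were -3.94 (Mrpl37) and 3.52 (Mrpl42). The libraries of the 2 groups did not overlap for 30 members that were higher and 38 that were lower, against 26.4% and 54.8% of all genes. The split depended on scaling. With each library centred on its median over genes with a mean of at least 10 TPM, the median of all genes moved from -0.52 to 0.06, and 42 members rose and 20 fell, against 33.4% and 30.3% of all genes. With quantile normalization 34 rose and 23 fell, against 32.8% and 30.8%. All changes named below are on the uncentred TPM scale.

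**Figure D1:**
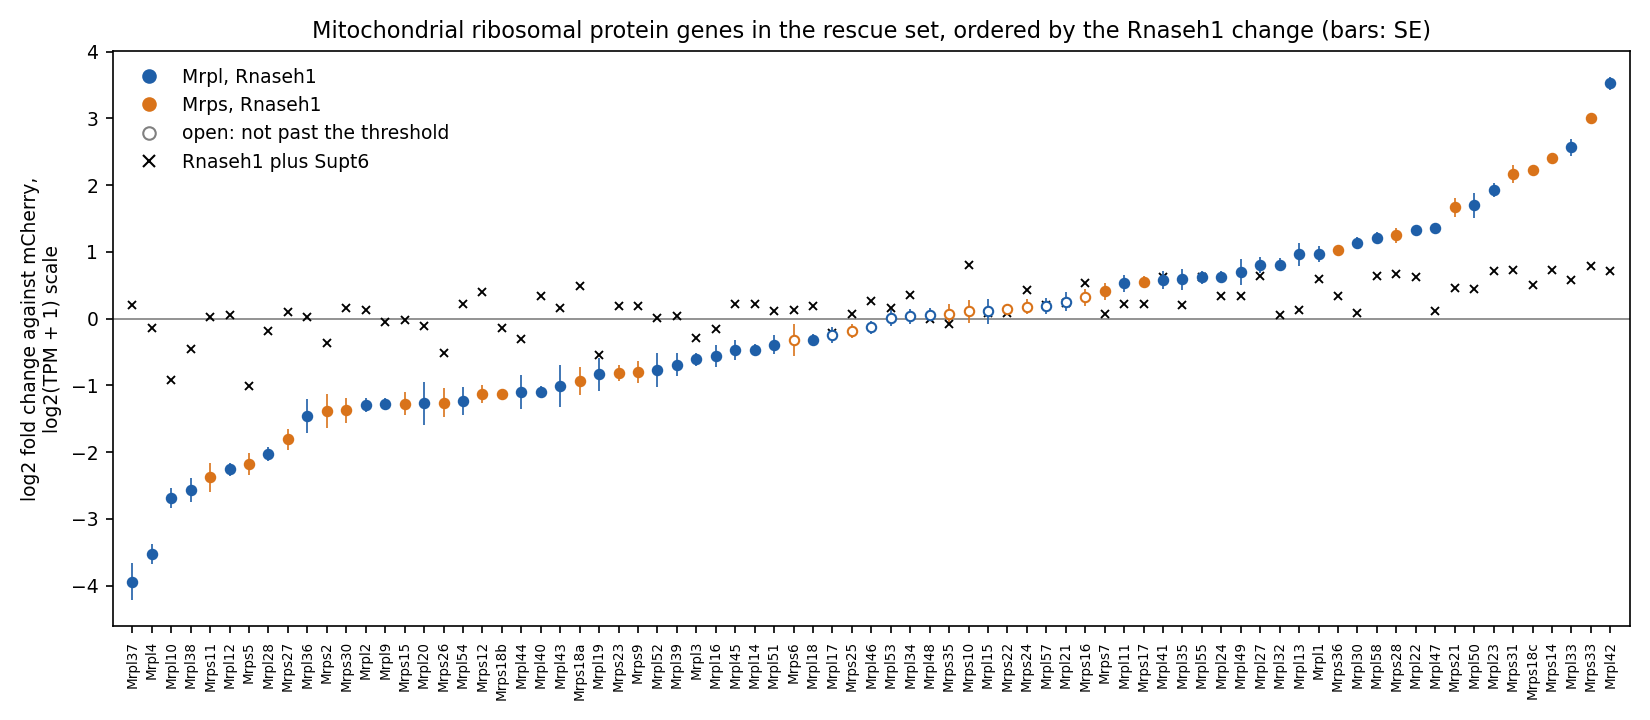
Log2 fold change on the log2(TPM + 1) scale of the 77 members tested in the rescue set, ordered from Mrpl37 at -3.94 to Mrpl42 at 3.52, with SE bars for Rnaseh1 against mCherry (blue Mrpl, orange Mrps, open circles past no threshold) and crosses for Rnaseh1 plus Supt6 against mCherry. Both colours run through the whole order, and the crosses lie between -1.01 and 0.80.

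Among large-subunit genes, 18 of 49 rose. Mrpl42, which exists only in mitochondria, was at 209 and 179 TPM with mCherry and at 2292 and 2178 TPM with Rnaseh1. That is a log2 change of 3.52 ± 0.096 (SE), adjusted p = 6.9e-07, and the Rnaseh1 libraries stood far above the control libraries. Mrpl33, the counterpart of a small bacterial protein near the tRNA exit site, was at 144 and 124 TPM against 880 and 724 TPM, a log2 change of 2.57 ± 0.13. Mrpl23, which sits at the rim of the exit tunnel, went from 58.3 and 51.4 to 224 and 199 TPM (1.93 ± 0.11). Mrpl50, a mitochondria-specific protein, went from 12.8 and 9.34 to 39.6 and 35.9 TPM (1.69 ± 0.19). Mrpl47, another protein of the tunnel rim, went from 103 and 100.1 to 256 and 264 TPM (1.35 ± 0.086). Its exons overlap Actl6a and Ndufb5.

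The genes that fell included 23 of the 49 large-subunit genes. Mrpl37, a mitochondria-specific protein, was at 106 and 119 TPM with mCherry and at 9.17 and 4.36 TPM with Rnaseh1, a log2 change of -3.94 ± 0.28 (adjusted p = 1.9e-05). Mrpl4, an ancestral protein that lines the exit tunnel, was at 124 and 128 TPM against 8.64 and 11.7 TPM (-3.52 ± 0.15). Both genes were an order of magnitude lower than in the controls, in each library. The stalk of the large subunit recruits translation factors. Mrpl10, at its base, went from 61.8 and 63.5 to 9.97 and 7.82 TPM (-2.69 ± 0.15). Mrpl12, its mobile part, went from 118 and 121 to 23.5 and 24.8 TPM (-2.26 ± 0.097). Mrpl38, mitochondria-specific, went from 48.0 and 49.3 to 6.18 and 8.77 TPM (-2.57 ± 0.18). At the weak end, Mrpl51 with -0.39 had an adjusted p just inside the threshold, 0.04988. Mrpl19 (-0.83) and Mrpl43 (-1.01) fell from levels under 7 TPM, and each lost the call without a single library: Mrpl19 without Rnaseh1 replicate 1 (-0.70), and Mrpl43 without Rnaseh1 replicate 2 (-0.60), mCherry replicate 1 (-1.12) or mCherry replicate 2 (-0.89).

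In the small subunit, 9 of 28 genes rose. Mrps33, the most abundant member, was at 662 and 633 TPM with mCherry and at 5193 and 5171 TPM with Rnaseh1, a log2 change of 2.998 ± 0.062 (adjusted p = 4.7e-07). Mrps14, which lies in the head of the subunit, went from 209 and 193 to 1109 and 1021 TPM (2.40 ± 0.081). Mrps18c went from 260 and 252 to 1244 and 1159 TPM (2.23 ± 0.072). Mrps31, mitochondria-specific, went from 78.2 and 65.3 to 346 and 304 TPM (2.17 ± 0.13). Mrps21 went from 224 and 174 to 703 and 562 TPM (1.67 ± 0.15). These 5 and those of the other subunit and direction were chosen among genes whose libraries did not overlap.

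Small-subunit genes that fell were 12 of 28. Mrps11, the counterpart of a bacterial platform protein, was at 39.0 and 42.0 TPM with mCherry and at 8.81 and 5.46 TPM with Rnaseh1 (-2.38 ± 0.22, adjusted p = 6.3e-05). Its start lies head to head with that of another member, Mrpl46 (chr7:78775236-78783531, minus strand), and the gene bodies overlap at chr7:78783119, where Mrps11 begins. Mrpl46 did not follow. It was at 98.1 and 95.8 TPM with mCherry and at 93.7 and 83.8 TPM with Rnaseh1 (-0.13, adjusted p = 0.28). Mrps5, at the entry of the messenger RNA channel, went from 37.4 and 33.0 to 7.23 and 6.71 TPM (-2.18 ± 0.16). Mrps27, an RNA-binding protein with pentatricopeptide repeats, went from 74.8 and 66.6 to 22.4 and 16.8 TPM (-1.81 ± 0.16). Mrps2 went from 30.9 and 34.4 to 15.8 and 8.85 TPM (-1.38 ± 0.25). Mrps30 went from 12.6 and 14.1 to 4.35 and 4.69 TPM (-1.37 ± 0.19), and its protein sits in the large subunit in spite of its symbol. Mrps22, the second most abundant small-subunit protein after Mrps33 in controls of the NSN and SN table, was at 462 and 451 TPM against 493 and 517 TPM (0.14, adjusted p = 0.11).

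The Mrps18 genes encode 3 related proteins of which the mammalian mitoribosome holds each at a different place. They split. Mrps18c rose, as given above. Mrps18b went from 259 and 270.0 to 121 and 120.0 TPM (-1.13 ± 0.079, adjusted p = 1.8e-05). Mrps18a, whose protein sits in the large subunit, went from 137 and 124 to 86.7 and 53.0 TPM (-0.93 ± 0.21, adjusted p = 0.0062). Its value turned to 0.59 when the trend with transcript GC content was removed from each library, and that of Mrps18b shrank to -0.09. Mrpl58, a peptidyl-tRNA hydrolase built into the large subunit that frees stalled peptides, rose from 154 and 147 to 368 and 333 TPM (1.21 ± 0.09). Mrps36 rose from 474 and 442 to 972 and 903 TPM (1.03 ± 0.076).

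**Figure D2:**
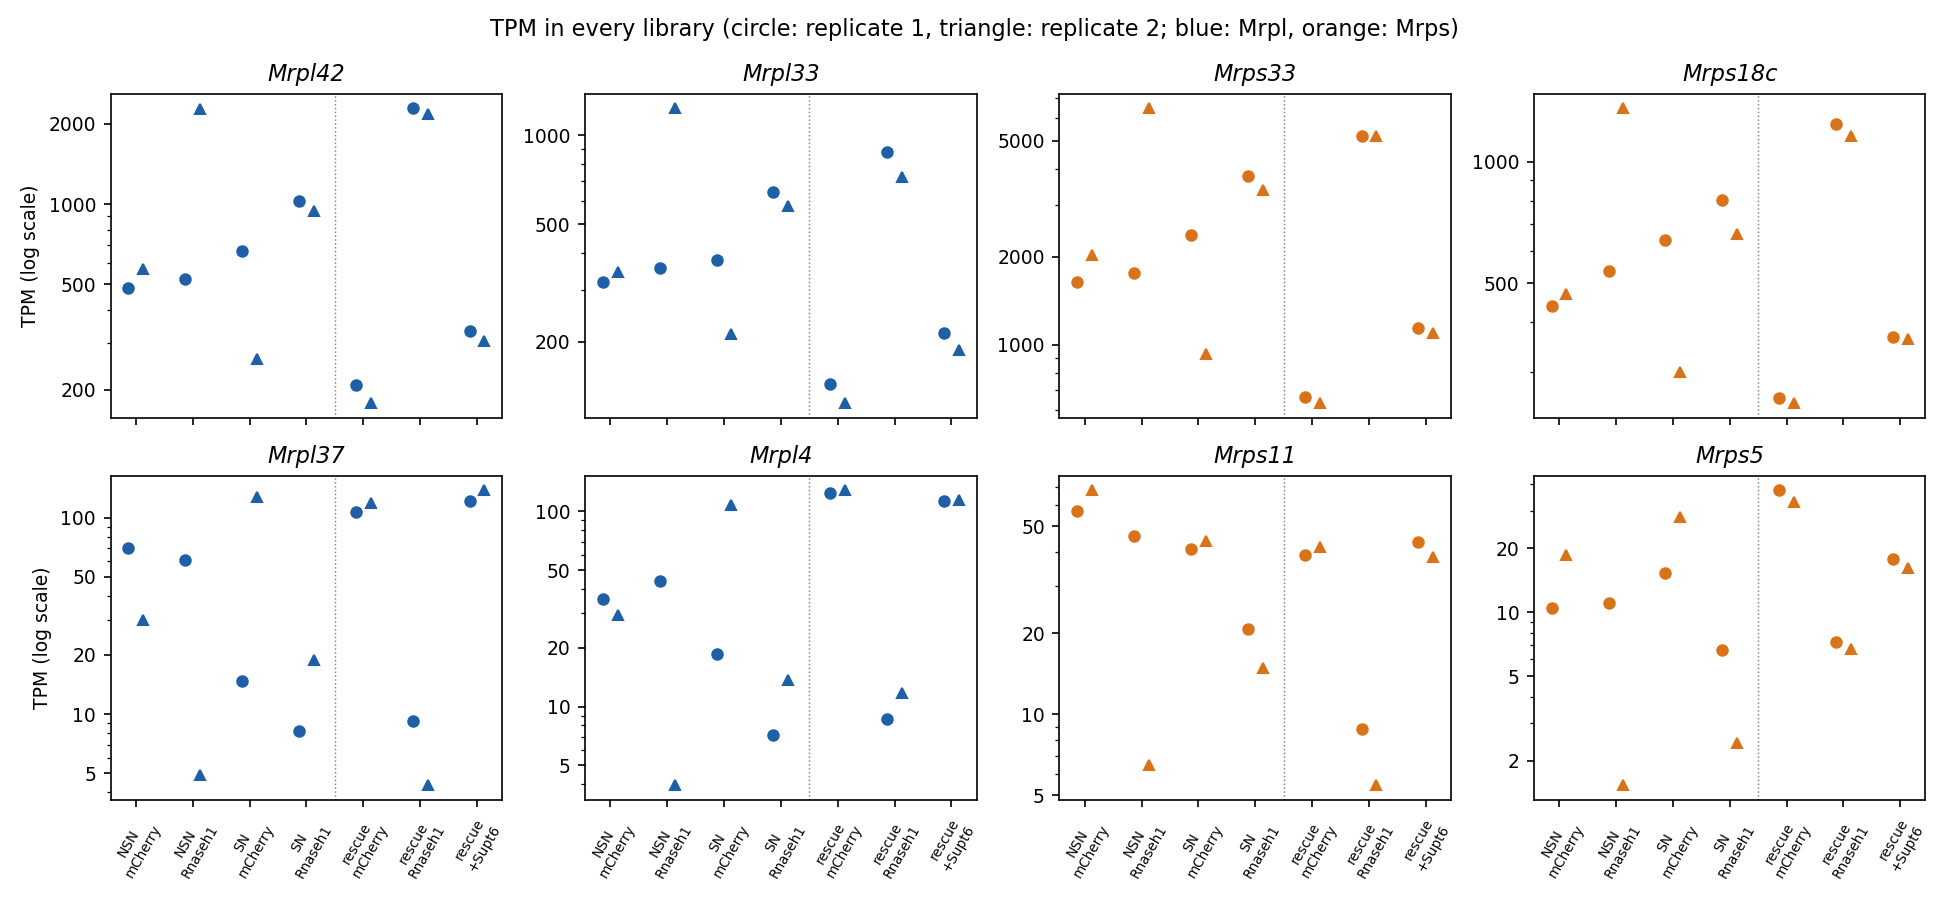
TPM on a log axis of 8 members in all 14 libraries (circles replicate 1, triangles replicate 2, dotted line between the deposited tables). In the rescue set the Rnaseh1 libraries of Mrpl42, Mrpl33, Mrps33 and Mrps18c lie above and those of Mrpl37, Mrpl4, Mrps11 and Mrps5 below the mCherry libraries. In the first table the replicates of NSN Rnaseh1 and of SN mCherry lie apart from each other, except Mrps11 in SN mCherry (41.1 and 44.0 TPM).

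The large and the small subunit did not separate by direction. In the large subunit 36.7% rose and 46.9% fell, and in the small subunit 32.1% rose and 42.9% fell. The median of the large subunit minus that of the small was -0.07 on the log2 scale. This difference was 0.06 without a filter, 0.08 with quantile normalization and 0.11 without mCherry replicate 2, so its sign was not stable. Counting Mrps18a and Mrps30 with the large subunit, an alternative chosen after seeing the data, gave -0.33. By ancestry, 12 rose and 13 fell of 29 large-subunit proteins with a bacterial counterpart, and 6 and 10 of 20 found only in mitochondria. Of 16 small-subunit proteins with a counterpart 6 rose and 6 fell, and of 9 without 2 and 4. Mrps18a and Mrps30, which fell, and Mrps36, which rose, are outside these classes because their proteins are not in the small subunit.

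In summed TPM the subunits did differ, through a few abundant members. All members together made up 9781 and 9266 TPM with mCherry and 20651 and 19702 TPM with Rnaseh1 in the rescue set. The small-subunit sum went from 4349 and 4067 to 11903 and 11285 TPM and the large-subunit sum from 5433 and 5199 to 8748 and 8418 TPM. The ratio of large to small therefore went from 1.25 and 1.28 to 0.735 and 0.746. Mrps33 alone held 6.77% and 6.83% of the sum in the controls and 25.1% and 26.2% with Rnaseh1. Without Mrps33 and Mrpl42 the sums were 8910.0 and 8454 against 13166 and 12353 TPM. The typical member went the other way in the large subunit, where the median TPM was 89.4 and 87.4 with mCherry and 58.8 and 56.1 with Rnaseh1.

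**Figure D3:**
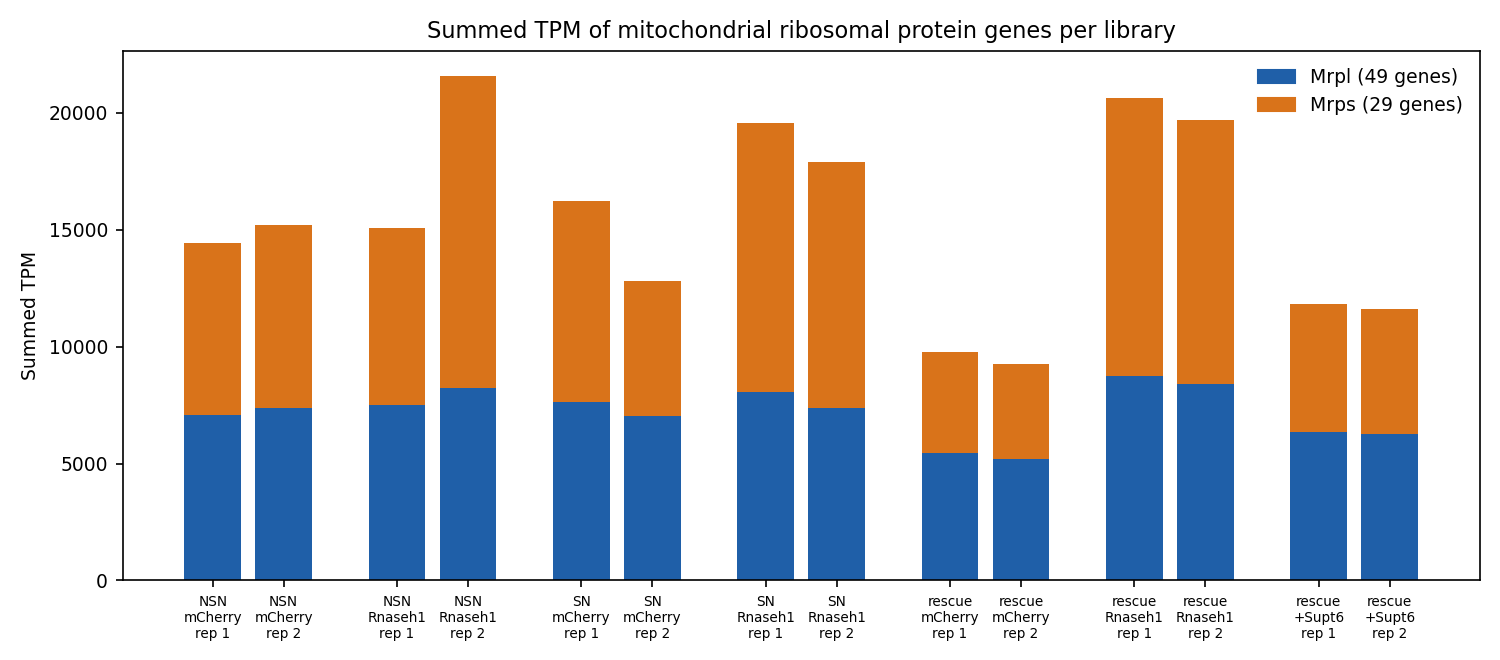
Summed TPM of the 49 Mrpl genes (blue) and the 29 Mrps genes (orange) in each of the 14 libraries, as stacked bars from 0. The rescue libraries with Rnaseh1 reach 20651 and 19702 TPM, the mCherry libraries 9781 and 9266 TPM, and the small subunit makes up most of the difference.

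Transcript GC content moved with the change, in members as in other genes. Across the 77 members the rescue change and the median GC content of a gene's transcripts had a Spearman rho of -0.50 (Pearson r -0.53), and across 11018 coding genes -0.53 (-0.51). These points share the same 4 libraries, and genes are not independent replicates. The 27 members that rose had a median GC content of 48.9% and a median transcript length of 783 bases, the 35 that fell 52.4% and 1226 bases. Transcript length had a rho with the rescue change of only -0.15 across members and -0.04 across the 11018 coding genes. Coding genes in the lowest 10% of GC content had a median change of 0.45 and those in the highest 10% of -1.66. With the GC trend removed from each library, 43 members rose and 15 fell, against 27.6% and 28.6% of 12603 genes. The median of the members lay 0.48 above that of genes of like GC content (5 bins), an alternative added after seeing the data, and 0.39 above that of all genes. This offset was not stable: it was 0.15 with a pseudocount of 5, 0.061 with quantile normalization and -0.029, the opposite sign, without a filter on low values. The part of GC content in the changes was not tested beyond this.

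With Supt6 added to Rnaseh1, 19 members were higher and 2 lower than with mCherry by the same test, and 56 did not pass. Of all genes 5.71% were higher and 7.6% lower, 13.3% in all, and the median change was 0.18 beside -0.04 for all genes. The members ranged from -1.01 to 0.80. Most of these calls rest on having both libraries of each group: 2 or 1 members were higher without one or the other Supt6 library (0.465% and 0.252% of all genes), 6 or 3 without a mCherry library (1.29% and 0.893%), and in those 4 fits 0 were lower (0.418% to 1.27%). The 3 with the largest changes upward were Mrps10 (0.80, from 28.4 and 22.5 to 50.7 and 39.8 TPM), Mrps33 (0.79, 1146 and 1099 TPM) and Mrps31 (0.73, 129 and 110 TPM). The 2 that were lower were Mrps5, at 17.8 and 16.1 TPM (-1.01 ± 0.16), and Mrpl10, at 32.8 and 32.8 TPM (-0.91 ± 0.15). Both calls were lost without any 1 of the Supt6 or mCherry libraries.

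Against Rnaseh1 alone, 35 members were higher and 20 lower with Supt6, against 41.6% and 17.4% of all genes (58.9% in all), with a median of 0.28 beside 0.44. Because these comparisons have libraries in common, their values stand side by side here. Rnaseh1 itself was at 1243 and 625 TPM with Rnaseh1 alone and at 2270.5 and 2017 TPM with Supt6 added. The groups thus differ in Rnaseh1 level as well as in Supt6. Mrpl37 was at 121 and 138 TPM with Supt6, which is 4.14 ± 0.28 above Rnaseh1 alone and 0.20 from mCherry (adjusted p = 0.72). Mrpl4 was at 113 and 115 TPM (3.38 ± 0.15 above Rnaseh1 alone, -0.14 from mCherry) and Mrps11 at 43.7 and 38.5 TPM (2.40 ± 0.22 and 0.02). Mrpl42 was at 332 and 305 TPM, a change of -2.81 ± 0.096 from Rnaseh1 alone and of 0.72 from mCherry (adjusted p = 0.0072). Mrps33 (-2.21 ± 0.062) and Mrpl33 (-1.99 ± 0.13, at 214 and 188 TPM) were likewise between the other groups. With median centring the counts were 21 higher and 35 lower, against 26.2% and 30.0% of all genes, and with the GC trend removed 15 and 34, against 25.5% and 24.7%. The summed TPM of all members was 11840 and 11630.4, and the ratio of large to small 1.16 in both libraries.

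In NSN and SN oocytes no member passed the test for Rnaseh1 against mCherry. In NSN oocytes 0 of 78 members and 0.0% of 12736 genes were called, and 0 members had an unadjusted p under 0.05, against 2.77% of genes. In SN oocytes 0 members and 0.0% of genes were called, and 2 had an unadjusted p under 0.05, against 6.74% of genes. The standard error of a member was typically 0.51 there and 0.13 in the rescue set. All NSN and SN groups shared 1 estimate of spread, including those whose replicates stood apart. Without either NSN Rnaseh1 library, the median standard error over all genes in SN oocytes was 0.43 instead of 0.53. The lack of calls in SN oocytes thus depends on NSN libraries as well. The median change was -0.40 in NSN oocytes (all genes -0.29) and -0.31 in SN oocytes (all genes -0.22). In SN oocytes the libraries did not overlap for 16 members that were higher and 31 that were lower, against 18.9% and 31.7% of genes. In NSN oocytes these were 10 and 20 members, against 10.3% and 22.6%. Without NSN Rnaseh1 replicate 1, 15 members were called in NSN oocytes, 1 higher and 14 lower, against 0.794% and 8.44% of 12474 genes, with the lone library assumed to vary like the other groups.

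The member with the smallest p in SN oocytes was Mrps22, at 784 and 673 TPM with mCherry and at 1611 and 1786 TPM with Rnaseh1 (1.22 ± 0.3, unadjusted p = 0.0045, adjusted p = 0.61). Mrps5 was at 15.3 and 28.0 TPM against 6.64 and 2.42 TPM (-2.09 ± 0.81), Mrps31 at 189 and 74.5 TPM against 376 and 271 TPM (1.42 ± 0.63), and Mrpl15, which has a bacterial counterpart, at 49.99 and 38.9 TPM against 73.5 and 79.9 TPM (0.78 ± 0.36). Their libraries did not overlap, and none passed after adjustment. In NSN oocytes the smallest p-values belonged to 4 genes that were lower with Rnaseh1. Mrps11 was at 56.9 and 68.0 TPM with mCherry and at 45.9 and 6.45 TPM with Rnaseh1 (-1.76 ± 0.77). Mrps23 was at 81.3 and 65.3 against 51.6 and 20.4 TPM (-1.14 ± 0.51), Mrpl16 at 35.5 and 51.8 against 33.9 and 14.7 TPM (-0.91 ± 0.46), and Mrpl46 at 119 and 109 against 101 and 9.96 TPM (-1.78 ± 0.9). In each of the 4, replicate 2 was far lower than replicate 1.

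The members called in the rescue set mostly had the same sign in the NSN and SN libraries, none of which are shared. Of the 27 that rose, 20 were positive in SN and 21 in NSN oocytes, and of the 35 that fell, 34 and 33 were negative. For all genes called in the rescue set these shares were 78.7% and 66.1% for those that rose, and 87.7% and 88.4% for those that fell, so the members that fell were above these shares and those that rose below in SN and above in NSN oocytes. None of these differences was tested. Across 77 members the rescue change had a Spearman rho of 0.85 with the SN change (all genes 0.69) and of 0.77 with the NSN change (all genes 0.55). The points share transcript GC content, with which the SN and NSN changes of members had a rho of -0.55 and -0.61.

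**Figure D4:**
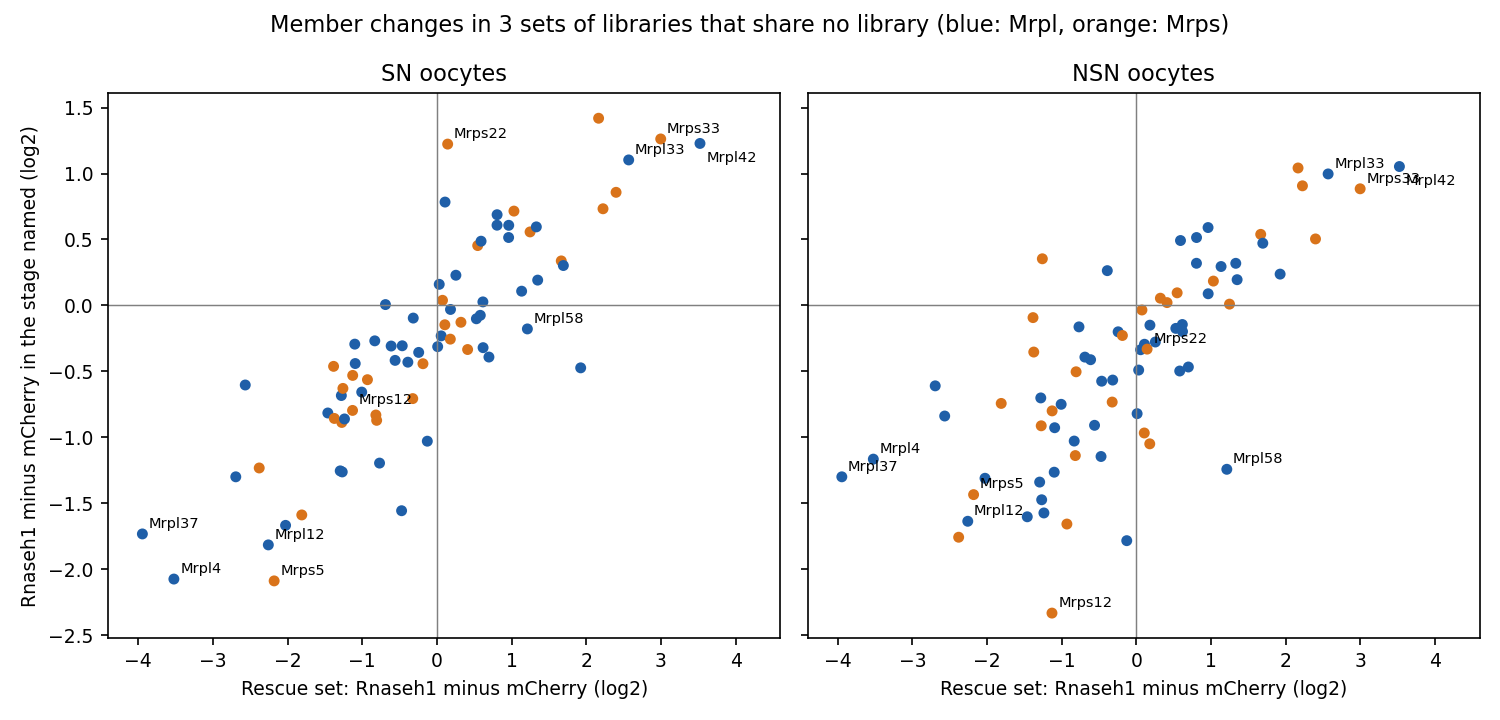
Rnaseh1 minus mCherry (log2 of TPM + 1) of 77 members in SN oocytes (left) and NSN oocytes (right) against the same difference in the rescue set (blue Mrpl, orange Mrps). Points rise from left to right in both panels, with a Spearman rho of 0.85 and 0.77, over a narrower range on the vertical than on the horizontal axis, while Mrps22 in SN and Mrpl58 in NSN oocytes lie apart.

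This pattern was also present between libraries of 1 group, which carry the same treatment label. Whether those labels are right was not tested. Rnaseh1 was at 745 and 229 TPM in the NSN Rnaseh1 libraries and at 81.0 and 131 TPM in the SN mCherry libraries. The difference of replicate 1 and replicate 2 of SN mCherry had a rho of 0.88 with the rescue change across the 77 members, and that of NSN Rnaseh1 a rho of -0.80. In all genes these were 0.75 and -0.63. The replicates of NSN mCherry (-0.58, all genes -0.26) and of SN Rnaseh1 (0.25, all genes 0.045) had smaller values. Taken singly, NSN Rnaseh1 replicate 2 against mCherry had a rho of 0.79 with the rescue change and replicate 1 a rho of 0.01. In SN oocytes the Rnaseh1 change had a rho of 0.90 against mCherry replicate 2 alone and of 0.43 against mCherry replicate 1 alone. Mrps33 shows the pattern, with 2386 and 931 TPM in the SN mCherry libraries and 1759 and 6457 TPM in the NSN Rnaseh1 libraries. Mrpl37 was at 14.8 and 127 TPM in the former and at 60.9 and 4.89 TPM in the latter. What sets the replicates of these groups apart was not tested.

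**Figure D5:**
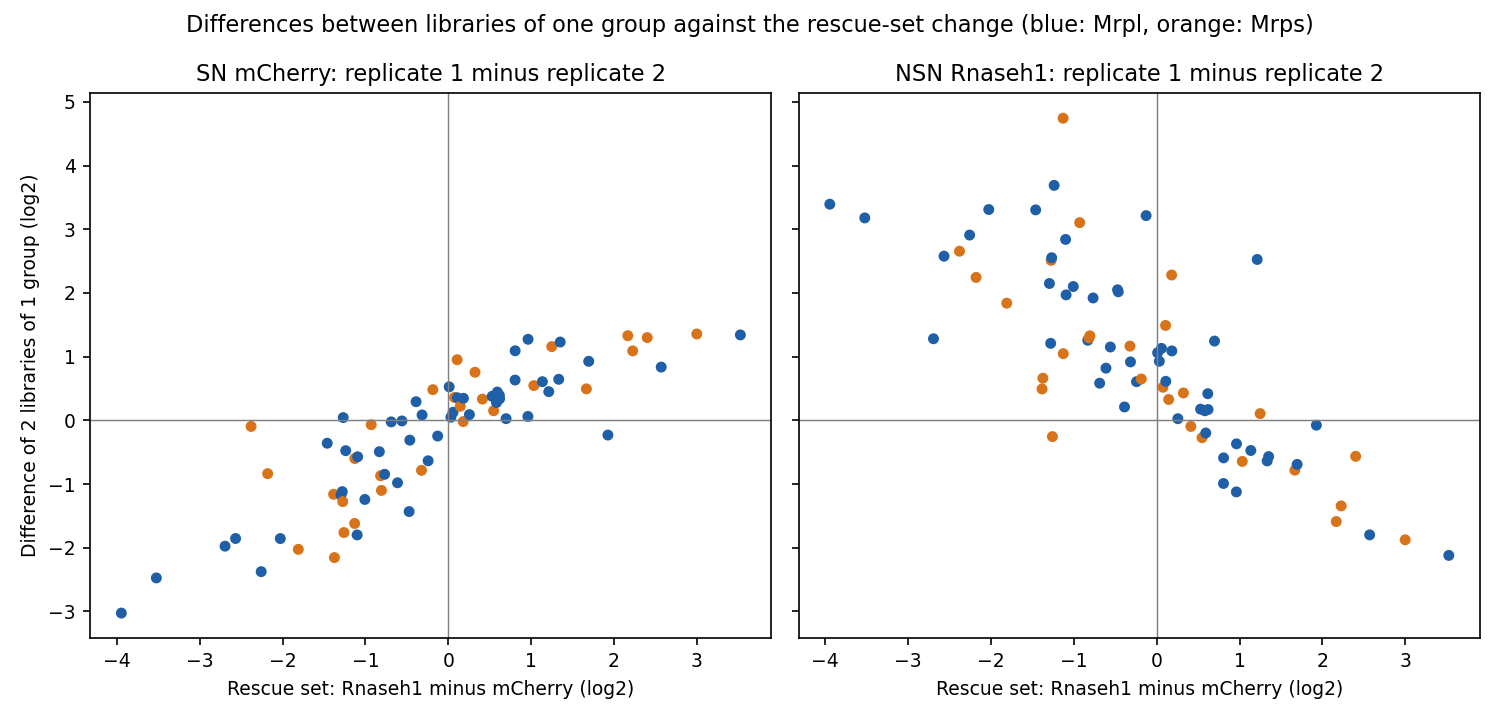
Replicate 1 minus replicate 2 (log2 of TPM + 1) of SN mCherry (left) and NSN Rnaseh1 (right) for 77 members against the rescue-set difference of Rnaseh1 and mCherry (blue Mrpl, orange Mrps). Points rise in the left panel (rho 0.88) and fall in the right panel (rho -0.80), although the vertical axis compares libraries of 1 group.

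Between stages, no member was called. For SN against NSN oocytes with mCherry, 0 of 78 members and 0.0% of genes were called, 1 member had an unadjusted p under 0.05 (2.58% of genes), and the median was -0.06 beside -0.03. That member was Mrps34, a mitochondria-specific small-subunit protein, at 5.05 and 4.19 TPM in NSN oocytes and listed at 0 and at 1.02 TPM in SN oocytes (-1.98 ± 0.57, unadjusted p = 0.0095, adjusted p = 1.0), with exons that overlap Nme3 and Mapk8ip3. The next 3 by p were Mrpl15 (-0.49), Mrpl19 (-0.59) and Mrpl49 (-0.50), with unadjusted p of 0.21, 0.34 and 0.35. The libraries did not overlap for 1 member that was higher and 14 that were lower in SN oocytes, against 8.43% and 19.0% of genes. The difference of the Rnaseh1 effect between SN and NSN oocytes was called for 0 members and 0.0% of genes, and 1 member, Mrps22, had an unadjusted p under 0.05 (2.26% of genes).

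Members with a divergent neighbour mostly moved with it. In the rescue set 16 such pairs were tested, in 13 of them both genes were called, and in 12 of those in the same direction. Of all 490 divergent coding pairs tested, both genes were called in 272, and 65.8% of those 272 had the same direction. Neither difference was tested. The fall of Mrpl37 stood beside that of Cyb5rl (-2.42), that of Mrps27 beside Ptcd2, itself a mitochondrial pentatricopeptide repeat protein (-2.90), and that of Mrps12 (-1.13) beside Sars2, the mitochondrial seryl-tRNA synthetase (-2.88). Mrpl10 fell with Lrrc46 (-1.29). Mrpl32 (0.81) rose with the proteasome gene Psma2 (1.56), and Mrpl30 (1.14) with Mitd1 (1.04). The exception among the 13 was Mrps18c, which rose by 2.23 while Helq, 29 bases away, fell by 0.52. In the pairs with only 1 gene called, Mrpl57 (0.18) and Mrpl41 (0.58) stood beside partners of opposite sign, Ska3 (-0.996) and Pnpla7 (-0.88). Mrpl51 (-0.39) and Ncapd2 (-0.75) had the same sign. Of the promoter motifs, members with the ETS motif had 7 that rose and 11 that fell (median change 0.01, -0.16 without the motif), those with NRF1 3 and 4 (-0.47, 0.01), those with Sp1 12 and 14 (-0.04, -0.19) and those with TATA 1 and 1 (0.026, -0.19). Members with the YY1 motif had 4 that rose and 8 that fell (-1.28, 0.04). None of these 5 differences was tested.

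Other genes of mitochondrial gene expression were read from lists of textbook members. Of 5 mitoribosomal proteins with other names, 1 rose and 2 fell in the rescue set with Rnaseh1: Chchd1 (68.0 and 66.7 against 245 and 265 TPM, 1.90), Gadd45gip1 (148 and 141 against 35.5 and 33.3 TPM, -2.04) and Dap3, a GTP-binding protein of the small subunit (-0.51). Of 21 assembly and ribosomal RNA modification factors tested, 4 rose and 13 fell, with a median of -0.93. Mterf4 (-2.35) and its partner, the RNA methyltransferase Nsun4 (-1.97), and the helicase Ddx28 (-2.02) fell, while Fastkd2 (1.18), Mettl15 (0.78) and Dhx30 (0.60) rose. Of 15 translation factors, 2 rose and 8 fell (median -0.91). The initiation factor Mtif3 went from 107 and 85.4 to 5.73 and 8.24 TPM (-3.62) and the elongation factor Tsfm (-2.72) and the ribosome recycling factor Gfm2 (-2.20) fell, while Slirp, which stabilises mitochondrial messenger RNA, went from 82.7 and 59.7 to 867 and 806 TPM (3.56).

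Of 14 mitochondrial aminoacyl-tRNA synthetases, 2 rose and 8 fell (median -0.96). Vars2 (-3.14), Sars2 (-2.88) and Pars2 (-2.42) fell, and Iars2 rose from 1.28 and 0.58 to 11.1 and 7.92 TPM (2.45). Of 12 genes of mitochondrial DNA maintenance and transcription, 4 rose and 5 fell (median 0.10). Polrmt, the mitochondrial RNA polymerase, fell from 136 and 128 to 31.9 and 34.1 TPM (-1.97), and Ssbp1, the single-strand binding protein, rose (1.54). The nuclear genes of oxidative phosphorylation, whose partner subunits the mitoribosome makes, numbered 52 of 78 that rose and 18 that fell, with a median of 0.84, beside 20.3% and 46.2% of all genes. With centring 60 rose and 16 fell, with quantile normalization 50 and 19, and with the GC trend removed 62 and 9, settings applied to these lists after seeing the data. Of all genes 33.4% rose and 30.3% fell with centring, 32.8% and 30.8% with quantile normalization, and 27.6% and 28.6% with the GC trend removed. Under the same 3 settings 5, 5 and 6 assembly factors rose and 6, 6 and 7 fell, and 6, 5 and 4 translation factors rose and 6, 5 and 6 fell. The lists were not tested against each other or against the ribosomal genes. Ndufa12 (3.44), Cox7c (2.83) and Cox6c (1.90) rose, and Atp5d (-3.44), Ndufv1 (-2.97) and Atp5a1 (-2.06) fell. With Supt6 added, 5.71% of all genes were higher than with mCherry and 7.6% lower. Beside these shares, 0 of the 21 assembly factors and 1 of the 15 translation factors differed from mCherry. Of the 78 oxidative phosphorylation genes, 33 were higher and 3 lower.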

How the data were processed

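Per the labels' protocols, polyadenylated RNA was reverse-transcribed with SuperScript II, amplified with KAPA HiFi and built into sequencing libraries (Vazyme TD503). The deposited values are TPM per gene. Per the submitters' processing notes, which give no roles, the tools were RSEM 1.3.3, STAR 2.7.0d, DESeq2 and Trim Galore 0.6.7, with the build mm10. No count or depth can be had from TPM. GENCODE M21 paired 34611 identifiers of the NSN and SN table with symbols and left 778 unpaired.

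Each table was fitted with limma 3.58.1 (eBayes with a trend) on log2(TPM + 1), a scale that understates changes of low genes, with all groups sharing 1 estimate of spread. Genes at 1 TPM or more in at least 2 libraries were tested, with Benjamini-Hochberg adjustment over all of them. The script was tested on simulated data. "Rose" and "fell" mean an adjusted p under 0.05. How reads shared with near-identical copies were assigned is not given in the sources used here, and 5 pseudogenes carry member-type symbols.

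Members and lists were chosen with earlier results of these data known. Named were 5 members per subunit and direction with the largest rescue change (libraries not overlapping, higher group at 5 TPM or more), 3 per direction for Supt6 against Rnaseh1, 4 by p in each other comparison, the 3 highest and 3 lowest in controls, the Mrps18 genes, Mrpl12 and Mrpl58, and up to 3 per other list and direction by p. Mrps10, Mrps12, Mrpl30, Mrpl32, Mrpl41, Mrpl51 and Mrpl57 were named after their values were seen, as were divergent neighbours. Alternatives were pseudocounts of 0.1 and 5, no filter, 5 TPM, centring, quantile normalization, GC trend removal, a replicate block and each library left out.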

Additional observations from a re-analysis of the deposited data

Results flagged for a closer look

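For 3 members the 2 Rnaseh1 libraries lay on opposite sides of the 2 mCherry libraries in NSN and SN oocytes, without overlap in either stage (3.85% of 78, against 2.95% of 12736 genes). Mrps22 was lower with Rnaseh1 in NSN oocytes (715 and 570 against 806 and 800.0 TPM) and higher in SN oocytes (1611 and 1786 against 784 and 673 TPM). The difference of the Rnaseh1 effect was 1.55 on the log2 scale (limma, unadjusted p = 0.0078, adjusted p = 1.0). Mrpl21 was lower in NSN oocytes (134 and 132 against 161 and 162 TPM) and higher in SN oocytes (182 and 194 against 165 and 155 TPM), a difference of 0.51 (adjusted p = 1.0), and its exons overlap Ighmbp2. Mrpl23 went the other way, higher in NSN oocytes (64.0 and 67.5 against 50.3 and 61.4 TPM) and lower in SN oocytes (38.7 and 36.3 against 48.3 and 56.9 TPM), a difference of -0.71 (adjusted p = 1.0). None of the 3 differences passed the test after adjustment over all genes. In the rescue set, which has no stage in its labels, Mrps22 and Mrpl21 were not called and Mrpl23 rose by a log2 change of 1.93.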

How the results depend on the processing

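All values are TPM-based, so depth is unknown, and 2 libraries a group leave 1 difference per group to measure spread. Members higher and lower with Rnaseh1 in the rescue set numbered 42 and 20 with centring, 23 lower with quantile normalization, and 43 and 15 with the GC trend removed. The shares of all genes were 33.4% and 30.3% with centring, 30.8% lower with quantile normalization, and 27.6% and 28.6% with the GC trend removed. Members higher with Supt6 than with mCherry numbered 11 without a filter, and 1 to 24 higher and 0 to 3 lower with single libraries left out. Against Rnaseh1 alone the higher and lower numbered 21 and 35 with centring, against 26.2% and 30.0% of all genes. With the GC trend removed they numbered 15 and 34, against 25.5% and 24.7%. With quantile normalization 22 were higher, against 27.0% of all genes. In NSN oocytes 0 to 15 members were called with single libraries left out, 15 without NSN Rnaseh1 replicate 1, where 0.794% of all genes were higher and 8.44% lower.

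The median of members minus that of all genes was 0.39 for Rnaseh1 in the rescue set. It was 0.54 and 0.15 with pseudocounts of 0.1 and 5, -0.029 without a filter, 0.51 at 5 TPM, 0.061 with quantile normalization, 0.54 with the GC trend removed, 0.48 against genes of like GC content, and 0.40 to 0.54 with single libraries left out. For Supt6 against mCherry it was 0.15 with quantile normalization and 0.32 with the GC trend removed. For Supt6 against Rnaseh1 (-0.16) it was -0.27 and 0.029 with those pseudocounts, 0.19 without a filter, -0.22 at 5 TPM, 0.047 with quantile normalization and -0.27 to -0.14 with single libraries left out. It was -0.29 without a filter in NSN oocytes and 0.11 with the GC trend removed in SN oocytes. For the stage difference it was -0.11 to 0.24 with single libraries left out and -0.11 without NSN Rnaseh1 replicate 2 and SN mCherry replicate 2.

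The large minus the small subunit median was -0.07 for Rnaseh1 in the rescue set. It was 0.058 without a filter, -0.003139 at 5 TPM, 0.084 with quantile normalization, -0.33 with Mrps18a and Mrps30 in the large subunit and -0.13 to 0.11 with single libraries left out. For Supt6 against Rnaseh1 these were -0.17, -0.12, -0.18, 0.066 and -0.22 to -0.037, with -0.18 at a pseudocount of 5 and -0.27 with the GC trend removed. It was -0.40 to -0.018 in NSN oocytes and -0.10 to 0.11 between stages with single libraries left out, and -0.10 between stages without both of those libraries. Of single members, Mrps18a reversed to 0.59 with the GC trend removed, and Mrpl46 for Supt6 against Rnaseh1 to -0.13 with centring and -0.48 with the GC trend removed. The cause of these shifts was not tested. The 116 changes of the 35 members named by rule, and no others, were each refitted under several alternatives. Over all these refits, which outnumber the changes, a call was lost 70 times and gained 23 times. Most frequent among the losses were those for Supt6 against mCherry with a library left out.

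With a replicate block, 28 members rose and 34 fell with Rnaseh1, against 2602 and 5915 of 12859 genes. With Supt6, 20 were higher and 2 lower than with mCherry, against 733 and 850 genes. Against Rnaseh1 alone, 37 were higher and 21 lower, against 5300 and 2235 genes. In NSN or SN oocytes 0 members and 0 genes were called. Replicate differences of groups with the same numbers correlated between -0.51 and 0.17, so the numbers were not taken to pair libraries.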
